A study of Homo sapiens with 4 samples.

Results

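The collagen genes examined here were the 36 genes of the array whose platform symbol has the form COL, digits, A, digits, out of 15870 named genes and 18603 probe sets. Each was measured by 1 probe set, so no choice among probe sets of a gene was needed. The values come from MDA-MB-231, an established human breast carcinoma cell line of mesenchymal-like character. Cells of 2 arrays carried a short hairpin RNA against DROSHA, the nuclear nuclease that cuts primary microRNA transcripts (labelled shDROSHA), and cells of the 2 other arrays were the control (labelled shNC). All were grown in Leibovitz's L-15 medium with serum, and the labels call the 2 arrays of each group biological replicates. The series' design text calls the control mock-transfected, and the sources do not say which description holds.

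Collagens are the main structural proteins of extracellular matrix, built from chains whose repeated glycine lets them wind around each other into a rope-like helix. The chains are modified and assembled in the endoplasmic reticulum, exported, trimmed by proteases and cross-linked outside the cell. Fibrillar collagens form the fibers of connective tissue, type IV collagen forms the sheet-like network of basement membranes, and further classes decorate fibers, anchor cells or span the cell membrane. In breast tumors fibroblasts deposit most fibrillar collagen, while carcinoma cells cut, bind and pull on it. Several collagen mRNAs are textbook targets of miR-29, a microRNA family matured through DROSHA.

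None of the 36 collagen genes rose or fell. Their log2 differences, shDROSHA minus shNC, ran from -0.35 (COL10A1) to 0.54 (COL24A1) with a median of 0.06, and 25 of the 36 were higher in shDROSHA by sign. The test was limma with a prior variance that follows signal, called the trended fit here, and a gene was called where its Benjamini-Hochberg adjusted p, taken across the whole array, was under 0.05. That fit called 0 of the 36 in either direction, where it called 6.41% of all 18603 probe sets (3.12% higher and 3.28% lower). At an unadjusted p under 0.05 it had 3 of the 36, or 8.33%, against 19.3% of all probe sets. Below the median signal these shares were 12.5% and 9.46%, and above it 0% and 29.2%. With 1 constant prior variance for all probe sets limma also called 0 collagen genes, against 0.00538% of all probe sets. At an unadjusted p under 0.05 it had 5 of the 36 with that prior, against 2774 of all 18603 probe sets.

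How small a change could have been seen depended on signal, because the spread between arrays of a group fell from 0.213 in the dimmest of 5 equal signal bins of all probe sets to 0.0672 in the brightest. Of the 36 collagen genes 33 lay in the lower 3 bins, 3 in the next and 0 in the brightest, where the trended fit called 15.6% of the probe sets. It called 0.833%, 1.93% and 4.7% in the lower 3 bins and 8.92% in the next. Weighting the share of each bin by its number of collagen genes gives 3.48%, or 1.26 calls among 36, so the count of 0 lies near what these signal levels give over all probe sets. The least log2 difference that would have passed was 0.27 for COL23A1, the brightest of them, and 0.72 for the gene with the widest error, with a median of 0.52. A dim probe set can also reflect background hybridization, no detection calls were used, and signals of different probe sets do not rank mRNA levels.

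The 95% intervals bound what these arrays allow for each gene taken singly, not for all 36 jointly. For all 36 genes the interval lay inside 2-fold in both directions, and for 29 it lay inside 1.5-fold. Of the other 7, 6 reached 1.5-fold on the higher side and 1, COL10A1, on the lower side. These bounds hold on the scale of the array, which compresses the fold changes of dim probe sets, and they take the spread of 2 arrays per group, pooled with that of probe sets of like signal. An exact permutation test of 1 gene, 2 arrays against 2, cannot give a two-sided p below 0.333.

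**Figure D1:**
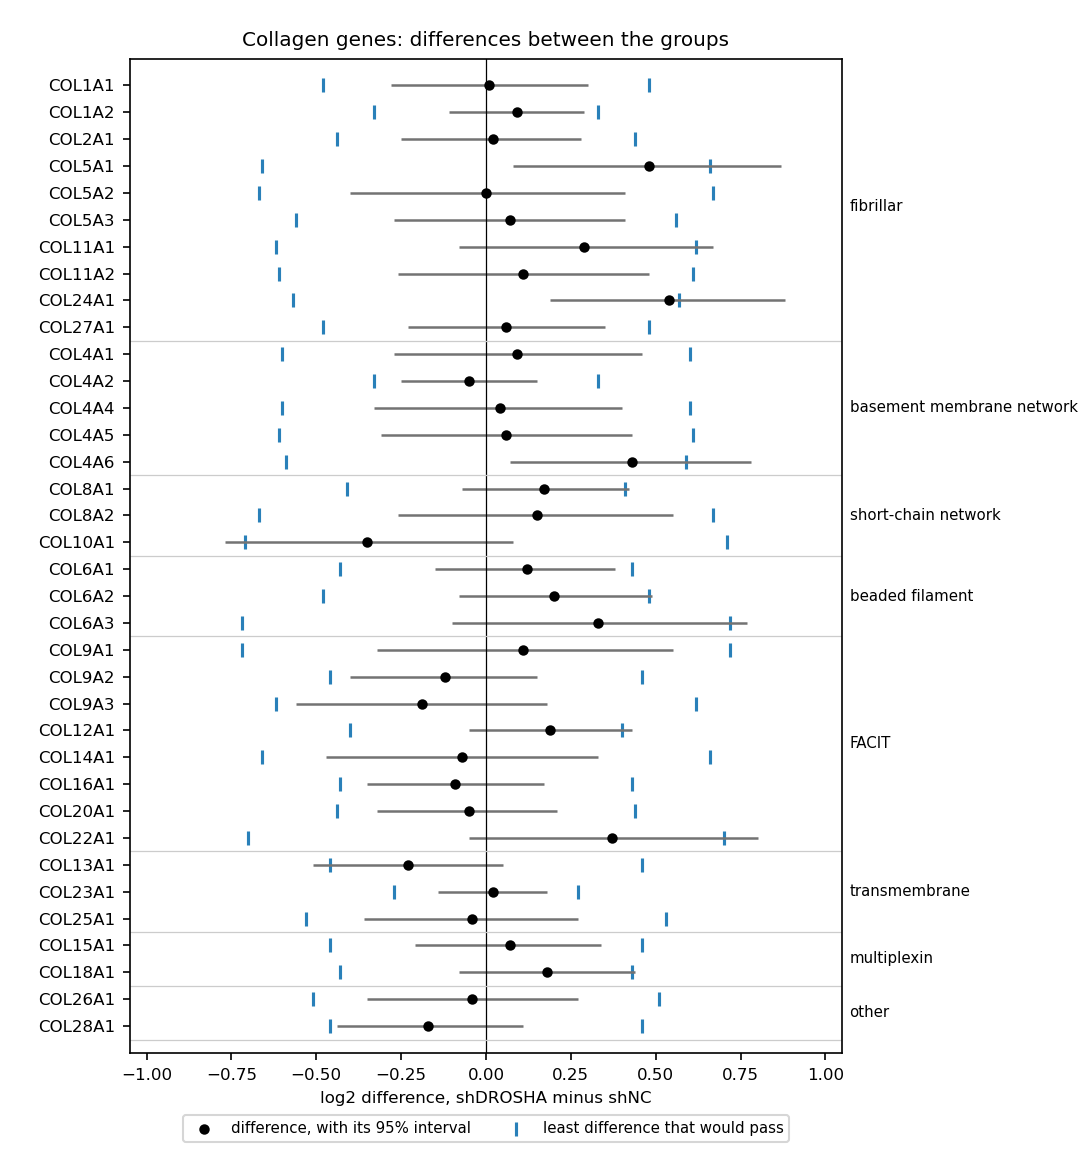
Log2 difference, shDROSHA minus shNC, of each of the 36 collagen genes, by class. Points are differences of group means, grey lines their 95% intervals from the trended fit, and blue ticks the least difference that would have passed the threshold. No point lies beyond its ticks, and COL24A1 at 0.54 comes closest.

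DROSHA, the targeted gene, fell. It read 8.71 and 8.74 on the knockdown arrays against 9.66 and 9.76 on the control arrays, a difference of -0.99 (adjusted p = 3.89e-06, or 0.0843 with the constant prior). VIM, the mesenchymal filament vimentin, lay between 11.82 and 11.88 on all 4 arrays, and the 6 mesenchymal markers had a median at the 95.9 percentile of signal. Of those 6, AXL rose (0.33) and CAV1 (-0.23) and MSN (-0.22) fell. All 6 lay in the brightest signal bin, where 15.6% of all probe sets were called. Of 6 luminal markers 1 fell, KRT19 (-0.35), and 0 rose, where 6.41% of all probe sets were called. By sign 4 of the 6 were higher, with a median of 0.09. Among them were the keratins KRT8 (0.14, adjusted p = 0.0938) and KRT18 (0.16, adjusted p = 0.0791). KRT8 and KRT18 were bright, at the 97.9 and 96.2 percentiles, and KRT19 at the 79.4, whereas ESR1, the estrogen receptor, was at the 29.9. The part of these markers in the collagen values was not tested. The fibroblast markers were dim, with PDGFRA between 5.17 and 5.33 and a median at the 16.6 percentile. DCN, the fibroblast proteoglycan decorin, was the highest of those 4 relative to control, by 0.27 (adjusted p = 0.467), and the other 3 were lower by sign. Of the fibroblast, endothelial and leukocyte markers measured (4, 3 and 4) 0 were called, against 6.41% of all probe sets. The leukocyte markers were 2 higher and 2 lower by sign. The brightest of them, CD68, was at the 83.8 percentile and differed by 0.20 (adjusted p = 0.108), with groups that did not overlap. All 4 fibroblast markers lay in the dimmest signal bin, where 0.833% of all probe sets were called. Array medians lay between 7.21 and 7.25 on the log2 scale.

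**Figure D2:**
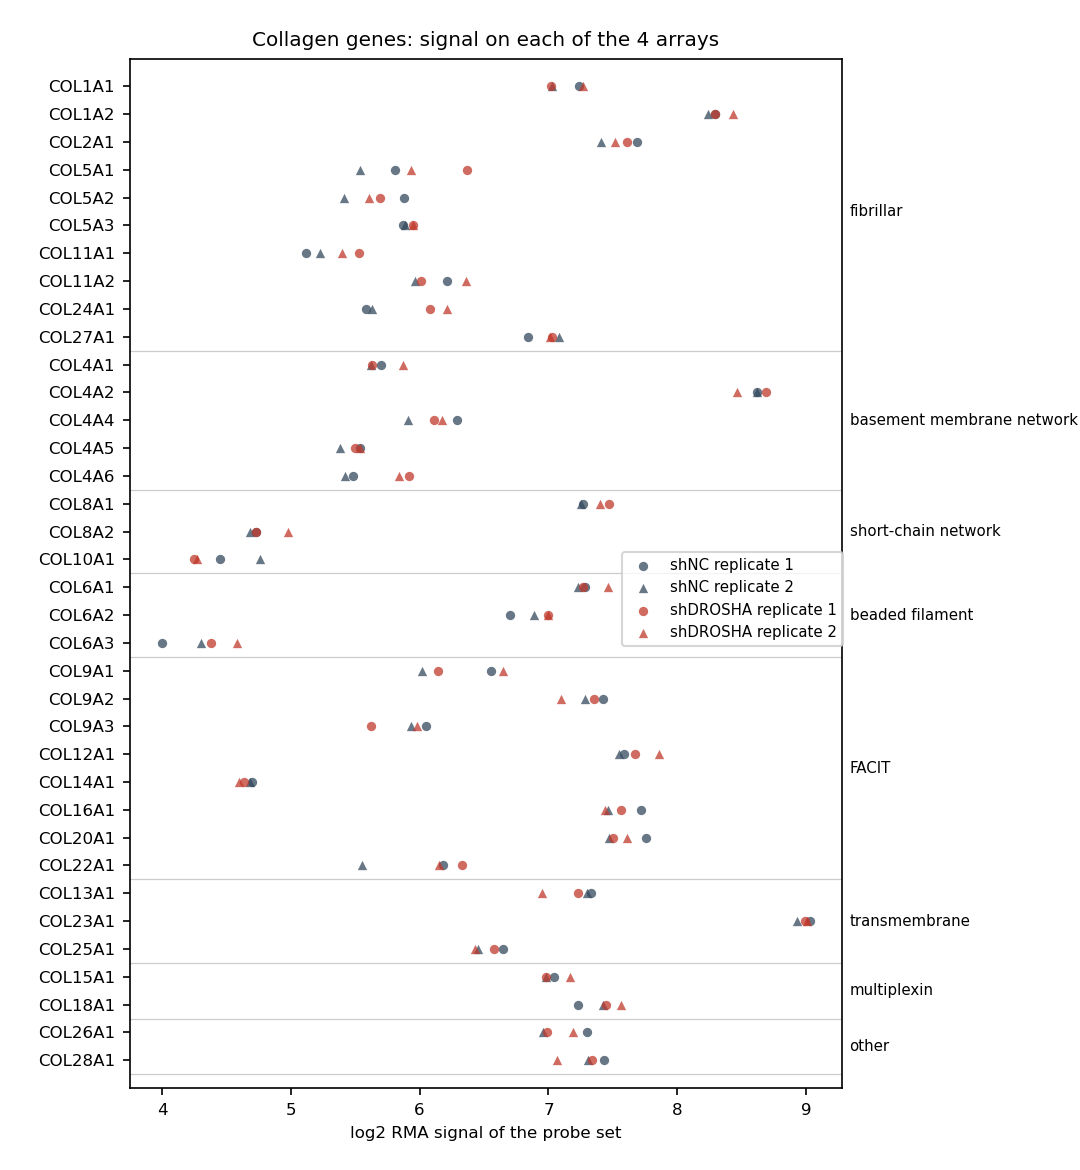
Log2 RMA signal of the probe set of each collagen gene on each of the 4 arrays, by class. Red marks are shDROSHA and dark marks shNC, with circles for replicate 1 and triangles for replicate 2. In most rows the red and dark marks interleave, and COL24A1, COL4A6 and COL5A1 are among the rows where both red marks lie to the right.

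Among the fibrillar collagens, which build the cross-banded fibers of tissue, 10 of 11 were measured, with a median of 0.08 and 0 called. All 10 were higher by sign, COL5A2 at 0.00 included, against 50.2% of all probe sets. COL1A1, COL2A1, COL5A2, COL11A2 and COL27A1 turned sign when single arrays were left out, and COL1A2, COL5A1, COL5A3, COL11A1 and COL24A1 did not. COL24A1, a fibrillar chain of bone and cornea, read 6.08 and 6.21 in shDROSHA and 5.58 and 5.63 in shNC. Both knockdown arrays lay above both controls, and the difference was 0.54 (SE 0.161), or 1.45-fold with an interval of 1.14-fold to 1.84-fold. Its adjusted p was 0.0666 in limma's trended fit and 0.17 with the constant prior, just short of the 0.57 it would have needed. At a threshold of adjusted p 0.10, which 9.8% of all probe sets passed, it was the 1 collagen gene called, and leaving out shDROSHA replicate 1 gave 0.60 (adjusted p = 0.0473). With any 1 of the other 3 arrays left out the difference was 0.47 to 0.56 and the adjusted p 0.179 to 0.277.

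COL5A1, the chain of type V collagen that seeds fibrils and sets their width, read 6.37 and 5.93 in shDROSHA and 5.81 and 5.54 in shNC. The groups did not overlap, but the 2 knockdown arrays differed by more than the nearest pair across groups. The difference was 0.48 (SE 0.186, adjusted p = 0.164). It was 0.70 without shDROSHA replicate 2, where it passed (adjusted p = 0.0177), and 0.25 without shDROSHA replicate 1. Its partner chain COL5A2 read 5.69 and 5.61 against 5.88 and 5.41, with both knockdown arrays between the controls, and COL5A3 differed by 0.07 (interval -0.27 to 0.41).

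COL1A1 and COL1A2 encode the chains of type I collagen, the main fiber of skin, bone and tumor stroma. COL1A1 read 7.02 and 7.27 in shDROSHA and 7.24 and 7.03 in shNC, so the groups overlapped fully, with a difference of 0.01 (interval -0.28 to 0.30). COL1A2 read 8.29 and 8.43 against 8.29 and 8.24, a difference of 0.09 (interval -0.11 to 0.29). As 1 of the brighter collagen probe sets COL1A2 had a narrow interval, which lay inside 1.5-fold in both directions on the scale of the array. COL11A1, a chain of the collagen that nucleates fibrils in cartilage, is also made by tumor fibroblasts and read 5.53 and 5.40 against 5.12 and 5.23. Its groups did not overlap, yet the difference of 0.29 did not pass (adjusted p = 0.407). COL2A1, the fiber chain of cartilage, COL11A2 and COL27A1 differed by 0.02, 0.11 and 0.06. COL3A1, the remaining fibrillar chain of the list, was not analysed here.

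Type IV collagen is encoded by genes that lie head to head in pairs and are read in opposite directions from a shared start region. The sequence between the starts is shown for both pairs of which each gene was measured, since the values of the 2 genes of a pair follow. Sequences are those of RefSeq on GRCh38.p14, plus strand, 5′ to 3′. Capitals mark the CCAAT box (letters CCAAT) and the GC box (letters GGGCGG), each searched on both strands. The first is the whole stretch of 126 bases between the starts of COL4A1 and COL4A2, at chr13:110307158-110307283, and the second is the 250 bases before the start of COL4A5, at chrX:108439588-108439837, which lie within the 379 bases between it and the nearest start of COL4A6.
COL4A1/COL4A2: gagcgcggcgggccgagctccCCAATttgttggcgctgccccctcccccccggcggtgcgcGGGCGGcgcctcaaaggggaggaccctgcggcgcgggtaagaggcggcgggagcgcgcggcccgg
COL4A6/COL4A5: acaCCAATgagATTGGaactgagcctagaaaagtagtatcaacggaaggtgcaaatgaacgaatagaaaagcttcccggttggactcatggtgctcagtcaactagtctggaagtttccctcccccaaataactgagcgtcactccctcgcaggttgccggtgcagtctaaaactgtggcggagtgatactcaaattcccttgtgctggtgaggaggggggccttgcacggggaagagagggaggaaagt
The COL4A1/COL4A2 stretch holds 1 CCAAT box and 1 GC box at 80.2% G and C. The COL4A6/COL4A5 stretch holds 2 CCAAT boxes, in opposite orientation, and 0 GC boxes at 51.2% G and C.

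COL4A1 and COL4A2, the chains of the basement membrane network found in nearly every tissue, differed little between groups. COL4A2 read 8.69 and 8.46 in shDROSHA and 8.62 and 8.62 in shNC, with the controls between the knockdown arrays, and its difference of -0.05 had an interval of -0.25 to 0.15. COL4A1 read 5.63 and 5.87 against 5.70 and 5.62, a difference of 0.09 (interval -0.27 to 0.46).

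In the pair on the X chromosome COL4A6 read 5.92 and 5.84 in shDROSHA and 5.48 and 5.42 in shNC. Both knockdown arrays lay above both controls, the SDs within groups were 0.0533 and 0.0451, and the difference was 0.43 (SE 0.165, interval 0.07 to 0.78, adjusted p = 0.157). Its neighbor COL4A5 read 5.50 and 5.54 against 5.54 and 5.38, where the groups overlapped, with a difference of 0.06 (interval -0.31 to 0.43). Whether the 2 genes of the pair differ from each other was not tested, and their intervals overlap. COL4A4, a chain of the kidney filter's basement membrane, differed by 0.04, and its neighbor COL4A3 was not analysed here. The class as a whole had 4 of 5 measured members higher by sign, a median of 0.06 and 0 called. Of the 5 only COL4A6 kept its sign when each array was left out in turn.

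The RefSeq table held windows of 250 bases before to 50 after a start for 26 of the 36 collagen genes, 36 windows in all. A CCAAT box lay in 36.1% of them, against 34.6% of all 35116 windows of that length, and a GC box in 55.6% against 45%. The TATA box (TATAAA) lay in 13.9% against 11.5%, and the AP-1 site (TGANTCA) in 1 of 36, or 2.78%, against 7.71%. COL4A1 and COL4A2 share part of their windows, as do COL4A5 and COL4A6. Some genes, such as COL11A2 and COL10A1, have several windows, so the windows are not independent promoters. The counts describe letters and say nothing of binding.

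The beaded filament chains, which join cells to the surrounding fibers as type VI collagen, were higher by sign in all 3 measured (COL6A1, COL6A2 and COL6A3), with a median of 0.20 and 0 called. COL6A2 read 6.70 and 6.89 in shNC, and both shDROSHA arrays lay above these and were nearly equal (SD 0.0035), with a difference of 0.20 (interval -0.08 to 0.49). COL6A3 had a mean of 4.48 (SD 0.14, n = 2) against 4.15 (SD 0.212, n = 2), a difference of 0.33 (SE 0.203, adjusted p = 0.412). Both had groups that did not overlap, and COL6A3 was at the 2.11 percentile of signal, where 0.72 would have been needed to pass. COL6A1 differed by 0.12, with overlapping groups.

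Of the short-chain network collagens, which form open lattices under endothelium and in growing cartilage, COL8A1 was higher by sign in both knockdown arrays, at 7.47 and 7.40 against 7.27 and 7.25 (difference 0.17, interval -0.07 to 0.42). COL10A1, a marker of hypertrophic cartilage, had the most negative difference of the 36, -0.35 (interval -0.77 to 0.08), at 4.25 and 4.27 against 4.45 and 4.76. Its groups did not overlap, at the 3.73 percentile of signal, and without shNC replicate 2 the difference was -0.19. COL8A2 differed by 0.15.

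The fibril-associated collagens with interrupted helices (FACITs), which sit on the surface of fibers, went both ways, with 3 of 8 measured higher by sign, a median of -0.06 and 0 called. COL12A1, which links type I fibers to their surroundings, read 7.67 and 7.86 in shDROSHA and 7.59 and 7.55 in shNC. Both knockdown arrays were above both controls, with a difference of 0.19 (interval -0.05 to 0.43, adjusted p = 0.385). COL22A1 differed by 0.37 (interval -0.05 to 0.80), but the difference was 0.06 without shNC replicate 2, which read 5.55 where the other 3 arrays read 6.15 to 6.33. COL9A1, COL9A2 and COL9A3, the chains of type IX collagen on cartilage fibrils, differed by 0.11, -0.12 and -0.19. COL14A1, COL16A1 and COL20A1 were lower by sign, with differences of -0.07, -0.09 and -0.05.

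The transmembrane collagens sit in the cell membrane and can be shed from it. COL13A1, found at sites of cell adhesion, read 7.23 and 6.95 in shDROSHA and 7.33 and 7.30 in shNC, with both knockdown arrays lower, and differed by -0.23 (interval -0.51 to 0.05, adjusted p = 0.375). COL23A1, with the brightest probe set of the 36, read 8.99 and 9.01 against 9.03 and 8.93. Its difference of 0.02 had the narrowest interval of the family, -0.14 to 0.18, or 0.905-fold to 1.14-fold. COL25A1 differed by -0.04.

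The multiplexins COL15A1 and COL18A1 are basement membrane collagens, and the end of the COL18A1 protein is released as endostatin, an inhibitor of vessel growth. COL18A1 read 7.45 and 7.56 in shDROSHA and 7.23 and 7.42 in shNC, with groups that did not overlap and a difference of 0.18 (interval -0.08 to 0.44). COL15A1 differed by 0.07. The 2 further genes, COL26A1 and COL28A1, were lower by sign, with differences of -0.04 and -0.17. COL6A5, COL6A6, COL7A1, COL17A1, COL19A1 and COL21A1 were not analysed here.

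The miR-29 family links the perturbed enzyme to collagens in the literature, so its mature sequences are shown, from RefSeq, 5′ to 3′, with the seed (bases 2 to 8) in capitals. The seed is the same in all 3.
hsa-miR-29a-3p: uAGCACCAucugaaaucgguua
hsa-miR-29b-3p: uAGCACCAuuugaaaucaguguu
hsa-miR-29c-3p: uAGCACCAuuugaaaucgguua
Of 9 collagens taken as textbook targets 8 were measured and 0 were called, with a median of 0.07 against 0.00 over all probe sets. By sign 7 of the 8 were higher, against 50.2% of all probe sets. COL1A1, COL4A1, COL5A2, COL15A1 and COL4A2 turned sign when single arrays were left out, and COL1A2, COL5A1 and COL5A3 did not. COL5A1 was the highest of them at 0.48, and the other 7 lay between -0.05 (COL4A2) and 0.09. The level of miR-29 itself was not analysed here, nor were its sites in these mRNAs.

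The 2 control arrays lay apart, and the excess of higher collagen genes changed with which of them was kept. The lowest of the 4 values was that of shNC replicate 2 for 18 of the 36 genes and of shNC replicate 1 for 7. It was that of shDROSHA replicate 2 for 7 and of shDROSHA replicate 1 for 4. The highest was that of shNC replicate 1 for 14, shDROSHA replicate 2 for 14, shDROSHA replicate 1 for 6 and shNC replicate 2 for 2. Such counts were not made over all probe sets. Without shNC replicate 2 the median turned to -0.02 and 17 of 36 were higher by sign, whereas without shNC replicate 1 they were 0.12 and 28. When each array was left out in turn, 19 of the 36 genes kept their sign throughout, 14 of them higher and 5 lower. Over all probe sets 50.2% were higher by sign. The groups of arrays did not overlap for 13 collagen genes, 10 higher and 3 lower, or 36.1%, against 47.8% of all probe sets. This share varied with signal. Below the median signal, where 24 collagen genes lay, it was 41.7% against 38.8% of all probe sets. Above the median signal it was 25% of 12 collagen genes against 56.7%. The absolute log2 difference had a median of 0.11 over the collagen genes and 0.121 over all probe sets.

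**Figure D3:**
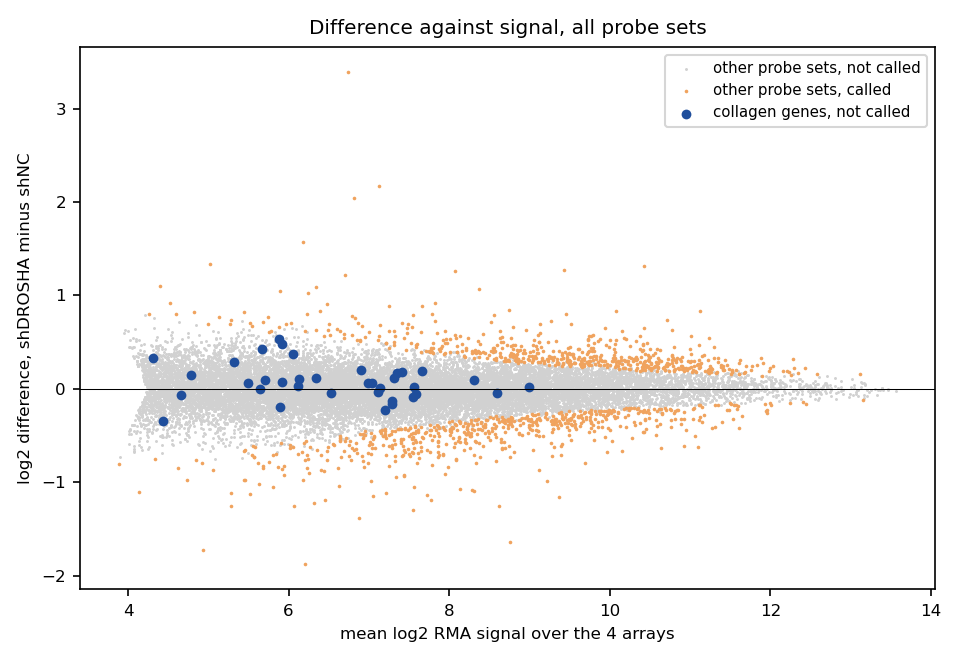
Log2 difference, shDROSHA minus shNC, against the mean log2 signal of the 4 arrays for all 18603 probe sets. Grey points were not called, orange points were called by the trended fit, and large blue points are the 36 collagen genes. The blue points lie within the grey band and left of a signal of about 9, where calls need larger differences.

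Genes that make, finish, bind or cut collagen were taken from 5 lists with 63 measured members, of which 3 rose and 7 fell in the trended fit. The 10 called are 15.9% of the 63, against 6.41% of all probe sets and 6.63% when the share of each signal bin is weighted to the signals of these 63. The lists were chosen with earlier results of these data known. Neither this share nor the shares of single lists given below are therefore a test of the lists. At an unadjusted p under 0.05 there were 17 of the 63, or 27%, against 19.3% of all probe sets, and the median difference of the 63 was 0.02. With the constant prior variance 0 of the 63 were called, against 1 of all 18603 probe sets. Under that prior 13 of the 63 had an unadjusted p under 0.05, against 2774 of all 18603 probe sets. How many list members passed therefore rests on how the spread was modelled, as it does over the whole array. DROSHA also lost its call with the constant prior.

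In the endoplasmic reticulum, where chains are hydroxylated, glycosylated, folded and loaded for export, 2 of 23 genes rose and 3 fell, with a median of -0.03. The list is bright, with a median at the 79.5 percentile of signal, and its 5 calls stand beside 2.59 at the called shares of its signal bins. SERPINH1, the collagen chaperone HSP47, read 9.73 and 9.58 in shDROSHA and 9.36 and 9.35 in shNC, and rose 1.23-fold (log2 difference 0.30, SE 0.0716, adjusted p = 0.0217). COLGALT1, which adds galactose to collagen hydroxylysine, rose 1.21-fold (9.60 and 9.51 against 9.32 and 9.24, adjusted p = 0.0332). Both lost their call without shDROSHA replicate 1, without shNC replicate 1 or without shNC replicate 2, at adjusted p values of 0.0772 to 0.188.

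The 3 that fell act in chain modification and in export. KLHL12, an adaptor of the ubiquitin ligase that enlarges export vesicles for procollagen, read 7.60 and 7.65 against 8.17 and 7.95, a difference of -0.44 (adjusted p = 0.0291). SEC24D, a cargo-binding coat protein of those vesicles, read 8.51 and 8.49 against 8.84 and 8.88, a difference of -0.36 (adjusted p = 0.0165). CRTAP, a subunit of the prolyl 3-hydroxylation complex, differed by -0.19 (adjusted p = 0.0289). KLHL12 lost its call without shNC replicate 1, SEC24D without either control array, and CRTAP without shDROSHA replicate 2, without either control array and with arrays centred on their medians (-0.16, adjusted p = 0.0863).

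The other partners of these proteins did not pass. P4HA2, a catalytic subunit of the prolyl 4-hydroxylase, differed by -0.24 (adjusted p = 0.0922), while its relative P4HA1 differed by 0.06 and the shared subunit P4HB by -0.03. P3H1 and PPIB, the partners of CRTAP in its complex, differed by 0.10 (adjusted p = 0.515) and -0.08 (adjusted p = 0.215). SEC23A, which pairs with SEC24 proteins in the vesicle coat, was lower by sign at -0.12 (adjusted p = 0.199). The lysyl hydroxylases PLOD1, PLOD2 and PLOD3 differed by 0.00, 0.06 and 0.18.

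Outside the cell, 0 of 13 processing and cross-linking genes rose and 2 fell, or 15.4% called, against 3.62% of all probe sets at their signals. LOXL1, a lysyl oxidase known mainly for cross-linking elastin, read 6.46 and 6.52 in shDROSHA and 7.02 and 7.26 in shNC. The groups lay well apart, and it fell 1.58-fold (log2 difference -0.66, SE 0.14, adjusted p = 0.0118). PXDN, peroxidasin, which forms the sulfilimine bonds of type IV collagen, fell 1.29-fold (8.16 and 8.28 against 8.62 and 8.54, adjusted p = 0.0277). LOXL1 lost its call without shNC replicate 2 (adjusted p = 0.134), and PXDN without shDROSHA replicate 1 or without either control array (0.0547 to 0.21). LOX, the founding lysyl oxidase, differed by -0.25 through shDROSHA replicate 2 alone, which read 6.39 where the other 3 arrays read 6.87 to 6.90, and by 0.00 without it. TLL2, a protease related to BMP1, and LOXL4, a further lysyl oxidase, differed by 0.27 (adjusted p = 0.293) and -0.32 (adjusted p = 0.438). BMP1 and ADAMTS2, proteases that trim procollagen ends, differed by 0.02 and -0.19.

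Among 7 fibril-associated proteins 1 rose and 0 fell, or 14.3% called, against 2.86% of all probe sets at their signals. Their median was 0.28 and 6 of 7 were higher by sign, against 50.2% of all probe sets. Most of the 7 were dim, with a median at the 24.6 percentile of signal, from 2.34 (DPT) to 67.1 (FN1). SPARC, a matrix glycoprotein that binds collagen and accompanies its secretion, read 8.09 and 7.81 in shDROSHA and 7.18 and 7.13 in shNC. It rose 1.73-fold (log2 difference 0.79, SE 0.121, adjusted p = 0.00137) and kept its call without any 1 of the 4 arrays (0.66 to 0.93). FN1, the fibronectin on which collagen fibers assemble, read 8.54 and 8.22 against 8.12 and 8.03, with a difference of 0.31 (adjusted p = 0.122). FN1 passed without shDROSHA replicate 2 (0.47, adjusted p = 0.00269) and differed by 0.15 without shDROSHA replicate 1 (adjusted p = 0.519). BGN, the proteoglycan biglycan, differed by 0.48 (adjusted p = 0.185), and by 0.25 without shNC replicate 2. DCN, DPT (dermatopontin) and FMOD (fibromodulin), which bind collagen fibrils, differed by 0.27, 0.28 and -0.18.

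Of 12 collagen receptors 0 rose and 2 fell, or 16.7% called, against 5.78% of all probe sets at their signals. ADGRG1, an adhesion receptor that binds type III collagen, read 6.16 and 6.22 in shDROSHA and 7.57 and 7.58 in shNC, and fell 2.61-fold (adjusted p = 3.1e-05). ITGA2, the alpha chain of the integrin that binds fibrillar collagen, read 9.17 and 9.08 against 9.55 and 9.44 and fell 1.29-fold (log2 difference -0.37, SE 0.0738, adjusted p = 0.00784). ADGRG1 kept its call without any 1 array, and ITGA2 lost it without shNC replicate 1 (adjusted p = 0.0952). ITGB1, the beta chain that pairs with ITGA2, differed by 0.02, and ADGRG6, a relative of ADGRG1 that binds type IV collagen, by 0.15 (adjusted p = 0.112). DDR1 and DDR2, the receptor kinases for collagen, differed by 0.10 and 0.38 without passing; the DDR2 arrays overlapped, at 5.34 and 5.87 against 5.03 and 5.41. DDR2 passed without shDROSHA replicate 1 (0.65, adjusted p = 0.045) and differed by 0.11 without shDROSHA replicate 2 and by 0.19 without shNC replicate 1. ITGA11, the alpha chain of another collagen integrin, and LAIR1, an inhibitory collagen receptor of leukocytes, differed by -0.24 and 0.23.

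None of the 8 proteases that cut collagen was called, where 2.7% of all probe sets at their signals were, with a median of -0.05 and 0 at an unadjusted p under 0.05. MMP1, the interstitial collagenase, read 5.92 and 6.12 in shDROSHA and 5.95 and 6.23 in shNC. MMP14, the membrane-bound collagenase, read 7.43 and 7.38 against 7.44 and 7.46, and MMP2 and MMP9, the gelatinases, differed by -0.18 and -0.04. MMP8, the neutrophil collagenase, differed by 0.45 (adjusted p = 0.318) with overlapping arrays, by 0.13 without shDROSHA replicate 1 and by 0.78 without shDROSHA replicate 2. The membrane-type proteases MMP15 and MMP16 differed by 0.05 and -0.11.

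**Figure D4:**
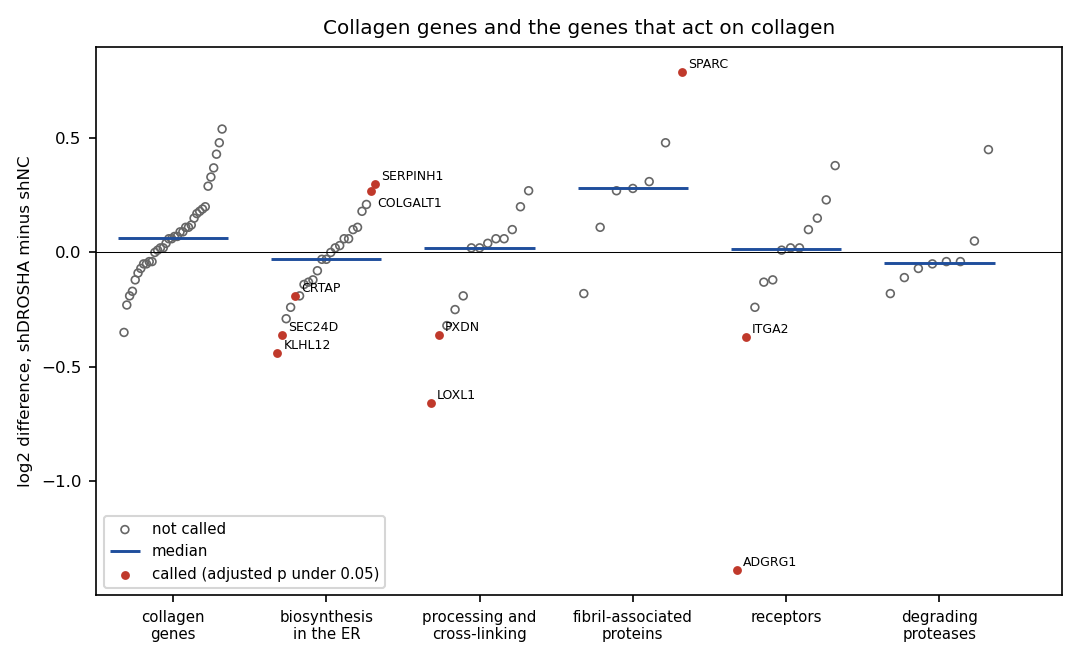
Log2 difference, shDROSHA minus shNC, of the 36 collagen genes and of the members of the 5 lists, each group sorted by value. Open circles were not called, filled red circles passed adjusted p 0.05 in the trended fit and are named, and blue bars are group medians. The 10 named genes lie in 4 of the lists and none among the collagen genes, whose values run from -0.35 to 0.54.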

How the data were processed

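Labelled cDNA from total RNA was hybridised to 4 Affymetrix arrays. The deposited files hold 1 log2 value for each probe set, made with RMA per the submitters' processing notes. Its version, any filter and the genome build: not given in the sources used here. RMA equalizes the arrays, so a shared change of most transcripts would not be seen. Symbols came from the platform annotation (15886 probe sets with 1, 0 with several, 2717 with none), updated by Entrez identifier. Promoter and microRNA sequences came from RefSeq (GRCh38.p14). Groups and replicate numbers came from the sample titles. Nothing says that the replicates were cultured separately, so p-values measure the spread between these arrays.

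All 18603 probe sets were fitted with limma 3.58.1 in R 4.3.3 (lmFit, eBayes with an intensity trend, 11.9 prior and 2 residual degrees of freedom; Benjamini-Hochberg adjustment); every adjusted p printed comes from limma. The trend was chosen because the constant prior (3 degrees of freedom) ignores that spread falls with signal. The least difference that would pass is the t quantile at the largest called p (0.0032) times the SE. The rule named DROSHA, any collagen gene called, the 6 brightest, a set list of chains of types I, III to VII, XVII and XVIII, and of each list the called members and up to 6 with the smallest p. The other collagen genes are given to account for every member, and P4HA1, P4HB, P3H1, PPIB, SEC23A, the PLOD genes, BMP1, ITGB1, DDR1, MMP9 and the markers named were picked after their values were seen. The collagen genes, classes and lists were chosen with earlier results of these data known. Alternatives covered the prior, dim-signal filters, centring, normalization, probe sets per gene, threshold, a 1.5-fold minimum, the replicate block and leaving out each array. The number of arrays limits the precision.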

Additional observations from a re-analysis of the deposited data

How the results depend on the processing

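The count of 0 collagen genes called higher and 0 lower was the same under all alternatives run, except that 1 was called higher at adjusted p 0.10 (COL24A1) and 0 to 1 when single arrays were left out (COL24A1 without shDROSHA replicate 1, COL5A1 without shDROSHA replicate 2). Those fits leave 1 array in a group and take its spread from the other group. Some of the other alternatives could hardly move a count of 0. A 1.5-fold minimum only removes calls, and each collagen gene had 1 probe set whichever way probe sets were combined. The dim-signal filters kept 27 and 12 of the 36 collagen genes. The median difference of the collagen genes ran from -0.02 to 0.12 and the number higher by sign from 17 to 28 without single arrays. Centring each array on its median moved all probe sets by 0.03 and the collagen median to 0.10, and the share of calls that were higher from 48.7% to 62.5%. Of the list genes, 0 rose and 0 fell with the constant prior variance, 1 and 2 at 1.5-fold or more, and 1 to 4 and 2 to 8 without single arrays; the cause of the last was not tested. Calls over all probe sets were 1192, 1 with the constant prior, 245 at 1.5-fold or more, 1824 at adjusted p 0.10, 1949 with shDROSHA replicate 1 left out, and 535 and 748 with control replicate 1 or 2 left out. With the replicate number as a block, 0 collagen genes and 3 and 8 list genes were called higher and lower, of 1391 over all probe sets, with a collagen median of 0.06. Same-numbered arrays' deviations correlated at -0.0218, and the labels name no batch shared by number, so the block was not taken as a pairing; whether a batch was shared was not tested.

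Single differences that turned sign, none of them called, ran without single arrays from -0.07 to 0.28 for COL11A2, -0.03 to 0.16 for COL15A1, -0.22 to 0.04 for COL16A1, -0.12 to 0.14 for COL1A1, -0.20 to 0.09 for COL20A1, -0.03 to 0.07 for COL23A1, -0.14 to 0.06 for COL25A1, -0.21 to 0.13 for COL26A1, -0.06 to 0.18 for COL27A1, -0.13 to 0.16 for COL2A1, -0.03 to 0.21 for COL4A1, -0.16 to 0.07 for COL4A2, -0.15 to 0.22 for COL4A4, -0.02 to 0.14 for COL4A5, -0.23 to 0.24 for COL5A2 (0.00 with quantile normalization again), -0.15 to 0.38 for COL9A1 and -0.25 to 0.00 for COL9A2. Among list genes they ran from -0.04 to 0.50 for LAIR1, -0.49 to 0.00 for LOX, -0.21 to 0.07 for MMP1, -0.15 to 0.26 for MMP15 and -0.25 to 0.02 for MMP16. LOX was called without shDROSHA replicate 1 (adjusted p = 0.0469).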
